A study of Mus musculus with 2 samples.

Results

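Described here are 7 genes of the homeostatic chemokine system, chosen by symbol from the 32285 gene rows (32245 symbols) of a single-cell series on mouse pancreatic tumors. They are the ligands Cxcl12, Cxcl13 and Ccl19, the signalling receptors Cxcr4, Cxcr5 and Ccr7, and the scavenging receptor Ackr3. The set was put together after levels of these genes in the cell classes of these libraries were known, with Cxcl13 leading the collagen-expressing cells, so the levels and ratios below are a description and carry no test. Each gene was counted as unique molecular identifiers (UMIs, 1 per captured transcript molecule) summed over the cells of a class in each library. The sums are given as CPM, the count scaled by all UMIs of the class, with a 95% Poisson interval in parentheses.

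Unsorted live cells were taken from tumors that grew after KPC cells, a pancreatic cancer line with Pdx1-Cre and a mutant P53 allele, were injected into the pancreas of male mice. One library, FLOX, came from MCT1 fl/fl mice, in which the lactate transporter gene Slc16a1 (MCT1) carries loxP sites and for which no Cre is named. The other, MCT1-KO, came from mice that also carry a tamoxifen-inducible Cre recombinase (CreERT2) driven by the Col1a2 promoter, which is meant to remove Slc16a1 from fibroblast-like cells such as pancreatic stellate cells (PSCs). The libraries were made to ask what the loss of lactate import in PSCs does to the tumor's cells. The KPC cells of both tumors came with no deletion of Slc16a1 named for them. The methods name tamoxifen for the mice with Cre and, in a scheme, tamoxifen or corn oil, and which of them the FLOX mice received is not given in the sources used here, nor are the ages of these mice or how many were pooled. There was 1 library per genotype, so every ratio between the libraries compares those libraries and has no replicate check. The intervals cover counting error only, and amplified reads were collapsed by UMI in the authors' counting.

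The kept cells numbered 8739 in FLOX and 11689 in the library labelled MCT1-KO, with a median of 4069 and 3706 UMIs. The targeted gene was not lower in the collagen-expressing, PSC-like cells of the library labelled MCT1-KO: Slc16a1 had 54 UMIs (25.6 CPM, 19.2-33.4) in FLOX and 111 UMIs (36.9 CPM, 30.3-44.4) there. Barcodes of 10 to 100 UMIs, taken below as free RNA, held Slc16a1 at 21.4 and 21.0 CPM. The first lies inside the FLOX interval and the second below the interval of the other library. The ratio of 1.44 was the same over all kept cells. The kit reads the 3' end of transcripts and the place of the loxP sites is not given in the sources used here. Whether this count lies outside the deleted part was not tested, nor was any other cause of the missing drop. The name MCT1-KO is used below as the label of a library. All 7 PSC-like marker genes were detected in both libraries, but the class was not of 1 kind. The summed CPM of 5 mesothelial markers was 345 and 271, and that of 4 adipocyte markers 0.474 and 991. A UMI of an immune gene was found in 95% and 85.6% of PSC-like cells. Ductal-like cells, taken as tumor and duct epithelium, held one in a larger share of cells in each library. These shares are at unlike depth, as the median was 15889 UMIs or more in ductal-like cells against 9451 and 7161 in PSC-like cells. By level, immune genes stood at 2746 and 2585 CPM in PSC-like and 3100 and 1383 CPM in ductal-like cells. Sub-cluster 4 of the PSC-like class, described below, held 8667 and 8220 CPM of 10 myeloid markers. Heat shock genes summed to 13484 and 9354 CPM in PSC-like cells, and 10 acinar genes to 115 and 2142 CPM. The unnamed clusters held 18.4% and 26.5% of cells, and 59 barcodes were kept cells in both libraries (4 and 3 of them PSC-like).

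Homeostatic chemokines place leukocytes in tissues at rest, unlike the chemokines induced by acute inflammation. CXCL12 from stromal cells and vessels retains cells that carry CXCR4 and is removed by ACKR3, which binds it without classical G protein signalling. CXCL13 draws CXCR5-bearing B cells into follicles, CCL19 draws CCR7-bearing T cells and mature dendritic cells into T zones, and both are typical of the fibroblast-like cells of lymph nodes and of lymphoid aggregates in inflamed or tumor tissue.

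The stretches before the RefSeq start of the 3 ligand genes are shown because PSC-like cells held most UMIs of each ligand. Sequences are the 250 bases before the start in RefSeq on GRCm38.p6, read on the gene's strand, and 5 of the 7 genes were in that table (not Cxcr5 or Ccr7).
Cxcl13 (chr5:95956689-95956938, plus strand): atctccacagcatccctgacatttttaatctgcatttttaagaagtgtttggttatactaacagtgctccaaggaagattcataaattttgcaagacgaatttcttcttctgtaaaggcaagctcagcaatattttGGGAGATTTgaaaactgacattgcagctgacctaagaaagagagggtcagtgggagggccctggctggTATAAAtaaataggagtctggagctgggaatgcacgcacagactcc
Ccl19 (chr4:42756366-42756615, minus strand): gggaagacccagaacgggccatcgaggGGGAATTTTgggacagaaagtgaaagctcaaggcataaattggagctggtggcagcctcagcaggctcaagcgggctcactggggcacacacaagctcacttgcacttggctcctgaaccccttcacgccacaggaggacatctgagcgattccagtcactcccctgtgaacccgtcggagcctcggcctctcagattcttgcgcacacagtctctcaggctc
Cxcl12 (chr6:117168285-117168534, plus strand): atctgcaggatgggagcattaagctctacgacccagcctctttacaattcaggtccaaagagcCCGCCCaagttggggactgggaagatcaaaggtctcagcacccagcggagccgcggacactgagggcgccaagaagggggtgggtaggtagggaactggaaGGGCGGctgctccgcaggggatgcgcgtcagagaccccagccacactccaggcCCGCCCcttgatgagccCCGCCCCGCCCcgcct
Capitals mark GGGANNTTT, letters like those of a kappaB element, the TATAAA box, and GGGCGG, the GC box, each searched on both strands and picked after these sequences had been read. Cxcl13 held GGGAGATTT at -114 to -106 and TATAAA at -46 to -41 relative to the start. Ccl19 held GGGAATTTT at -223 to -215. Cxcl12 held GGGCGG 5 times, once on the plus strand and 4 times on the minus strand, where 2 copies overlap. Of 32851 promoters of this length, 4.13% held GGGANNTTT, 12.4% TATAAA and 32.7% GGGCGG. The share of G and C bases was 42% for Cxcl13, 58.4% for Ccl19 and 64.4% for Cxcl12, against a median of 52.4% over all promoters. These are matches of letters and not measured binding sites. The annotations place the Ccl19 start differently, and most of the Ccl19 stretch lies inside the gene body that GENCODE gives.

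The gene bodies lie on 6 chromosomes of GRCm38 in GENCODE vM21, and all 7 are protein-coding. Cxcl12 is at chr6:117168535-117181367, Cxcl13 at chr5:95956951-95961068 and Ccl19 at chr4:42754525-42756577. Cxcr4 (chr1:128588199-128592293) and Ackr3 (chr1:90203980-90216751) share chromosome 1, Cxcr5 is at chr9:44511787-44561877 and Ccr7 at chr11:99144196-99155077. The symbol Ccl19 stands on a second row of the files, which held 0 UMIs in the kept cells.

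The ligand UMIs came mainly from stromal classes. PSC-like cells held 59.1% of all Cxcl12 UMIs in FLOX and 88.5% in the library labelled MCT1-KO, 76.3% and 91.3% of Cxcl13, and 92.4% and 94.9% of Ccl19. Endothelial-like cells were the other source of Cxcl12, with 36.9% and 5.34%. Of the receptor UMIs, myeloid-like cells held 76.0% and 77.8% for Cxcr4, B-like cells 32.9% and 53.9% for Cxcr5, and ductal-like cells 85.9% and 82.6% for Ackr3. These shares also follow how many cells of each class were captured, which in unsorted tissue cannot be told apart from RNA per cell in the library totals.

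**Figure D1:**
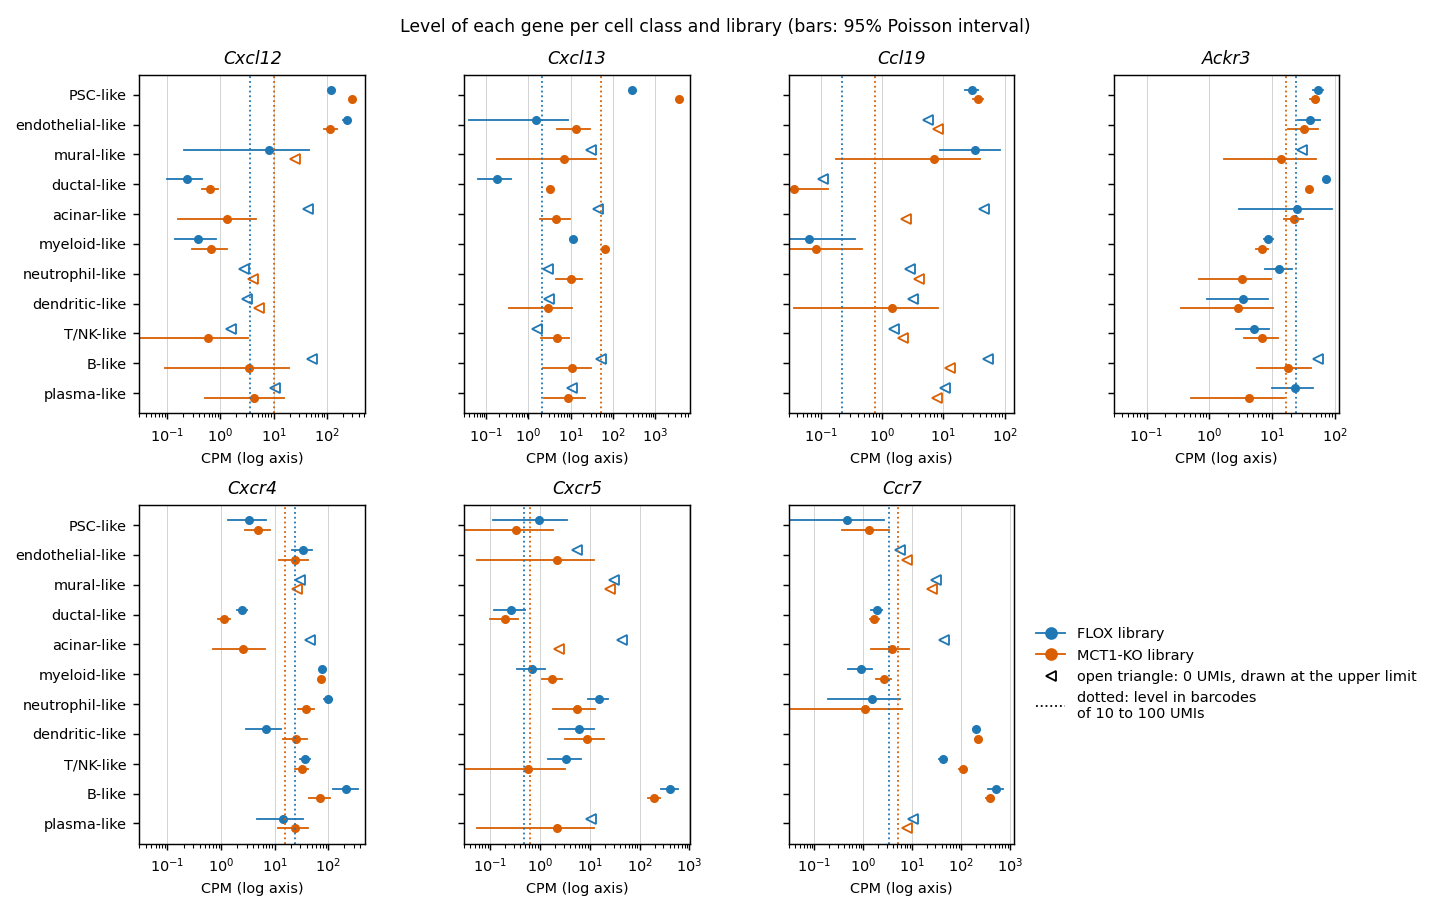
CPM (log axis) of each gene in 11 cell classes, with points for the library level, bars for the 95% Poisson interval, open triangles for classes with 0 UMIs drawn at the upper limit, and dotted lines for the level in barcodes of 10 to 100 UMIs, which hold mostly free RNA. Cxcl13 in PSC-like cells stands at 279 CPM in FLOX and 3629 CPM in the library labelled MCT1-KO, and Cxcl12 is higher there and lower in endothelial-like cells.

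Cxcl13, the B cell attractant, showed the largest ratio between the libraries among the genes described here in PSC-like cells. It had 589 UMIs in the 218 FLOX cells and 10925 UMIs in the 397 cells of the library labelled MCT1-KO. The levels were 279 CPM (257-303) and 3629 CPM (3561-3698), a ratio of 13.0 (12-14.1). Among the 8333 genes with at least 50 UMIs in the class, Cxcl13 had rank 32 by the ratio, and its rank by level was 505 in FLOX and 28 in the library labelled MCT1-KO. A ratio of at least 1.5 in either direction was reached by 2 of the 4 homeostatic chemokine genes with 50 UMIs in this class (Cxcl12 and Cxcl13, against Ackr3 and Ccl19), and by 21.3% of all genes tested in it. The median ratio over all genes was 0.978.

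Few FLOX cells carried the gene. A Cxcl13 UMI was present in 24 FLOX cells (11%, Clopper-Pearson 7.18-15.9) and 151 cells of the library labelled MCT1-KO (38.0%, 33.2-43.0), although the median depth was higher in FLOX (9451 against 7161 UMIs). After each cell was thinned to 1000 UMIs, which left out 27 and 36 shallower cells, the shares were 5.76% and 28.3%. In ductal-like cells, which should not make Cxcl13 and had a median of 15889 UMIs or more, 4.53% of cells held a UMI in the library labelled MCT1-KO, 0.356% after thinning. At least 10 Cxcl13 UMIs were counted in 5 PSC-like cells of FLOX and 90 of the library labelled MCT1-KO, with a median of 189 and 28.5 collagen UMIs in those cells.

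**Figure D2:**
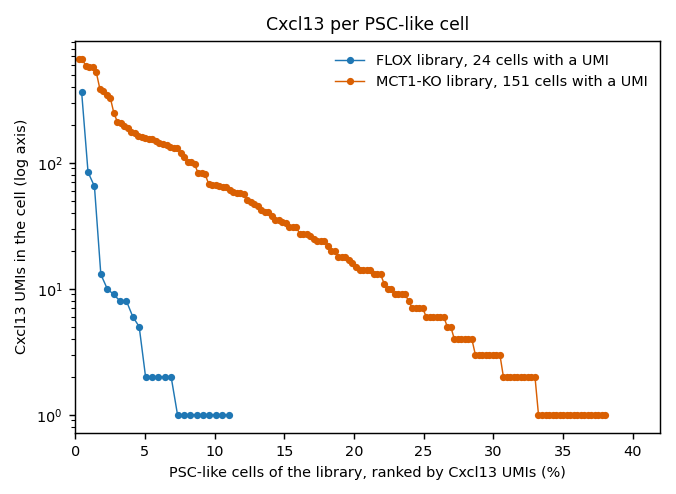
Cxcl13 UMIs (log axis) in each PSC-like cell with at least 1, against the cell's rank as a percent of the PSC-like cells of its library; lines join the cells of a library. The curve of the library labelled MCT1-KO reaches 38.0% of cells and 90 cells of at least 10 UMIs, that of FLOX 11% and 5 cells.

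The FLOX level rested on single cells: 5 cells held 90.7% of its Cxcl13 UMIs, and 1 of them 362. In the library labelled MCT1-KO the 5 highest cells held 28.1%, and the highest had 671. Without the highest cell of each library the ratio was 31.4 (27.6-36.0). With classes set by each cell's marker share in place of clusters it was 102 (84.3-125), and 141 when cells of over 5000 genes were also kept. The lowest ratio was 8.23 (4.79-15.5), from the 11 and 57 PSC-like cells without any immune gene UMI, with 13 and 920 Cxcl13 UMIs.

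Clustering the PSC-like cells again, without the 7 genes, gave 6 sub-clusters, and Cxcl13 differed between them. Sub-cluster 0, led by Igha, C7, Clec3b and Dpt, genes of matrix-rich fibroblasts apart from the immunoglobulin gene Igha, had 191 CPM in 57 FLOX cells and 4898 CPM in 133 cells of the library labelled MCT1-KO, a ratio of 25.6 (21.3-31.1). In it 21.1% and 35.3% of cells held a UMI. Sub-cluster 2 was mesothelial-like, with Upk3b among its leading genes and 4 of 5 mesothelial markers detected, and had 1182 and 4468 CPM in 30 and 79 cells, a ratio of 3.78 (3.43-4.17). The FLOX cell with 362 UMIs was one of these 30, and 8 of them held all 460 UMIs. Shares of cells with a UMI in this sub-cluster were 26.7% (12.3-45.9) and 67.1% (55.6-77.3), the highest of the sub-clusters in FLOX. Levels were high in the library labelled MCT1-KO in both of these kinds of cell.

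Sub-cluster 3, led by Fmod and holding the contractile genes Acta2 and Tagln, was almost free of Cxcl13, with 1 UMI in 52 FLOX cells (1.55 CPM) and 15 UMIs in 3 of 46 cells of the library labelled MCT1-KO (32.2 CPM). All 7 myofibroblastic genes were detected in it. The same split was seen between cells inside the class: the summed level of the 7 myofibroblastic genes was 579 CPM in FLOX cells with Cxcl13 and 2815 CPM in those without, and 426 and 1174 CPM in the library labelled MCT1-KO. Inflammatory fibroblast genes summed to 3830 CPM with and 2290 CPM without Cxcl13 in FLOX, but to 2183 and 2163 CPM in the other library. Mesothelial markers summed to 346 and 345 CPM in FLOX and to 297 and 251 CPM in the other library. Genes of antigen-presenting fibroblasts summed to 11742 CPM with and 5948 CPM without Cxcl13 in FLOX, and to 6444 and 4875 CPM in the other library. These genes do not mark fibroblasts alone, as myeloid-like cells held 22880 and 15072 CPM of them. Within the class they stood at 15259 and 9101 CPM in sub-cluster 4, led by macrophage genes, and at 13942 and 9996 CPM in the mesothelial-like sub-cluster 2. The whole class held 2496 CPM of the myofibroblastic genes in FLOX and 848 CPM in the library labelled MCT1-KO, where sub-cluster 3 made up 11.6% of the class against 23.9%.

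Cxcl13 was also counted in the sub-clusters led by genes of other cells. Sub-cluster 4, led by Ccl4 and the C1q genes of macrophages, held 0 UMIs in 14 FLOX cells and 2397 UMIs in 18 of 42 cells of the library labelled MCT1-KO, 5899 CPM. That is 340.1-fold higher against a floor of 3 UMIs set for the FLOX cells together, and the lower counting limit of the ratio was 276. Sub-cluster 1, with few UMIs per cell (median 1369) and acinar genes in the lead, had 43.4 and 1116 CPM, in 4.62% and 26.2% of cells. The adipocyte-like sub-cluster 5, with Cfd, Retn and Adipoq, was present in 13 cells of the library labelled MCT1-KO alone, at 2080 CPM. With sub-clusters 0, 2 and 3 alone the ratio for PSC-like cells was 10.5 (9.63-11.4).

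**Figure D3:**
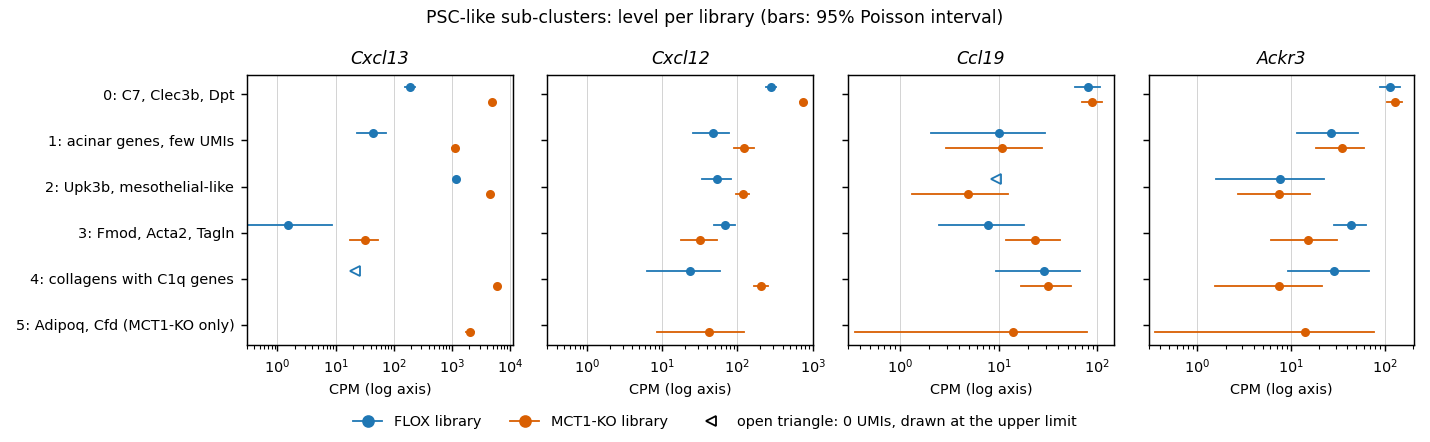
CPM (log axis) of 4 genes in the 6 PSC-like sub-clusters, with a point per library, the 95% Poisson interval as a bar and an open triangle at the upper limit where the count was 0. Cxcl13 is higher in the library labelled MCT1-KO in each sub-cluster present in both, while Cxcl12 is higher there in sub-clusters 0, 1, 2 and 4 and lower in sub-cluster 3.

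Outside the PSC-like class, macrophage and monocyte cells of the myeloid-like class held Cxcl13. The count was 175 UMIs in 16 of 2585 FLOX cells and 771 UMIs in 78 of 2215 cells of the library labelled MCT1-KO. This came to 11.2 CPM (9.58-13.0) and 65.0 CPM (60.5-69.8), a ratio of 5.82 (4.93-6.90). Of the 3 homeostatic chemokine genes with 50 UMIs in these cells, only Cxcl13 reached a ratio of 1.5, against 17.6% of all genes. The 5 highest cells carried 89.1% of the UMIs in FLOX and 47.5% in the other library. The 15 cells with at least 10 Cxcl13 UMIs in the library labelled MCT1-KO had a median of 75 immune gene UMIs, and 1 of them had a collagen UMI, whereas 3 of the 4 such FLOX cells had one. Leaving out all myeloid-like cells with a collagen UMI gave 69 and 701 UMIs and a ratio of 12 (9.36-15.6), and leaving out likely doublets gave 71 and 759 UMIs and a ratio of 14.5 (11.3-18.7).

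The myeloid-like clusters were not alike. Cluster 2 (Apoe, Ccl8 and C1q genes) had 12.7 and 80.5 CPM of Cxcl13, and cluster 5 (Arg1, Rsad2 and Tnf) 1.73 and 82.3 CPM. Cluster 10, with C1q genes as well, had 12.4 and 15.4 CPM, a ratio of 1.24 (0.586-2.78). The cycling cluster 14 had the higher level in FLOX, 22.2 against 3.69 CPM, from 48 UMIs in 4 cells and 4 UMIs in 4 cells. Barcodes of 10 to 100 UMIs held Cxcl13 at 2.06 CPM in FLOX and 52.7 CPM in the library labelled MCT1-KO. Clusters 10 and 14 were below that in the library labelled MCT1-KO, and cluster 5 was below it in FLOX. Ductal-like cells were below it in both libraries, with 0.175 CPM (6 UMIs) and 3.24 CPM (178 UMIs).

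Cxcl12, the ligand of Cxcr4 and Ackr3, was higher in PSC-like cells and lower in endothelial-like cells of the library labelled MCT1-KO. PSC-like cells had 251 UMIs in FLOX, 119 CPM (105-135), and 896 UMIs in the library labelled MCT1-KO, 298 CPM (278-318), a ratio of 2.50 (2.17-2.89) with rank 177 of 8333. A UMI was found in 29.8% (23.8-36.4) and 46.1% (41.1-51.1) of cells, 11.5% and 19.9% after thinning. Endothelial-like cells had 157 UMIs (238 CPM, 202-279) in FLOX and 54 UMIs (117 CPM, 88.1-153) in the other library, a ratio of 0.492 (0.354-0.675). The shares of cells were 30.5% and 15.6%, or 22.6% and 11.1% after thinning, with median depths of 4176 and 1830 UMIs. In these cells heat shock genes summed to 12189 and 7357 CPM, immediate early genes to 8521 and 4604 CPM, immune genes to 2898 and 1001 CPM and acinar genes to 68.3 and 1763 CPM, and their part in the Cxcl12 ratio was not tested. Cxcl12 was the one gene of the 7 with 50 UMIs in endothelial-like cells, where 21.4% of all genes reached a ratio of 1.5. The order of the classes therefore differed: endothelial-like cells came first in FLOX and PSC-like cells in the library labelled MCT1-KO, each above the next class by non-overlapping intervals.

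Within the PSC-like class the level of Cxcl12 was highest in sub-cluster 0, with 279 CPM in FLOX and 740 CPM in the library labelled MCT1-KO, a ratio of 2.65 (2.24-3.16), in 52.6% and 78.2% of cells. The mesothelial-like sub-cluster had 54.0 and 117 CPM, a ratio of 2.17 (1.34-3.66). In the contractile sub-cluster 3 the ratio was below 1, with 44 UMIs (68.2 CPM) in FLOX and 15 UMIs (32.2 CPM) in the other library, 0.473 (0.244-0.866). The 11 and 57 PSC-like cells without immune gene UMIs had 14 and 136 Cxcl12 UMIs and a ratio of 1.13 (0.651-2.12). With classes set by marker share the ratio was 5.72, and 6.79 without the upper gene limit. Free RNA held Cxcl12 at 3.66 and 10.2 CPM, and ductal-like cells at 0.233 and 0.637 CPM.

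Ccl19, the ligand of Ccr7, was counted mostly in PSC-like cells, and its interval for the ratio between the libraries held 1. It had 61 UMIs in FLOX, 28.9 CPM (22.1-37.2), and 111 UMIs in the library labelled MCT1-KO, 36.9 CPM (30.3-44.4), a ratio of 1.27 (0.925-1.77). A UMI was in 12.4% and 15.1% of cells, 4.19% and 4.43% after thinning. Sub-cluster 0 held 48 of the 61 and 78 of the 111 UMIs, at 79.8 and 88.4 CPM. The 16 and 24 mural-like cells held 4 and 1 UMIs, and dendritic-like cells, a source of Ccl19 in lymph nodes, 0 and 1 UMIs, where the floor of 3 UMIs stands at 2.55 CPM in FLOX and the upper Poisson limit at 3.14 CPM. The direction of the Ccl19 ratio was not stable: it was 2.66 and 3.55 with classes set by marker share, without and with cells of over 5000 genes, 0.964 after subtraction of free RNA, and 0.640 in PSC-like cells without immune gene UMIs (2 and 11 UMIs).

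The 3 ligands met in part of the same PSC-like cells. Of the cells with Ccl19, 59.3% in FLOX and 78.3% in the library labelled MCT1-KO also had Cxcl12, against 25.7% and 40.4% of those without Ccl19. Cxcl12 was found in 66.7% and 60.3% of cells with Cxcl13 and in 25.3% and 37.4% of the rest. Cells with a Cxcl13 UMI were deeper (median 11934 against 8130 UMIs in FLOX, and 8165 against 5811 in the other library), and the part of depth in this sharing was not tested. Inflammatory fibroblast genes such as Clec3b, Dpt and Il6 summed to 4549 CPM in FLOX cells with Ccl19 and 2105 CPM in those without, and to 4004 and 1723 CPM in the library labelled MCT1-KO.

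**Figure D4:**
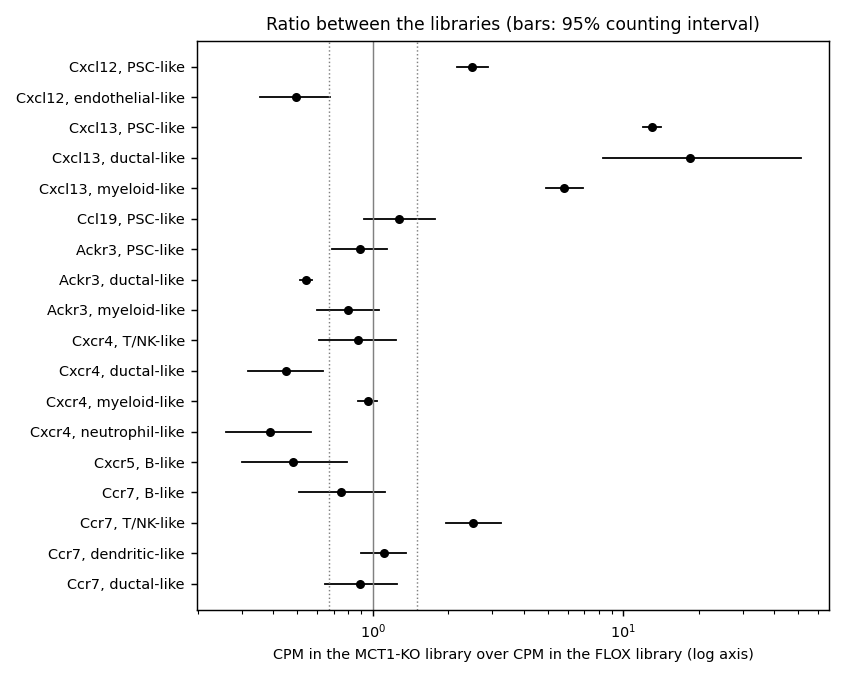
Ratio of CPM in the library labelled MCT1-KO over FLOX (log axis) for each gene and class with at least 50 UMIs, with its 95% counting interval; dotted lines mark 1.5 in either direction. Past the dotted lines, Cxcl13 lies to the right in PSC-like, myeloid-like and ductal-like cells, Ccr7 in T/NK-like cells and Cxcl12 in PSC-like cells. To the left lie Cxcr4 in neutrophil-like and ductal-like, Ackr3 in ductal-like, Cxcl12 in endothelial-like and Cxcr5 in B-like cells.

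Ackr3, the receptor that removes CXCL12, was counted mainly in ductal-like cells in these tumors. Ductal-like cells had 2430 UMIs in FLOX, 70.9 CPM (68.1-73.8), and 2108 UMIs in the library labelled MCT1-KO, 38.4 CPM (36.8-40.1), a ratio of 0.541 (0.510-0.574). In the same cells heat shock genes summed to 17342 and 10348 CPM and immediate early genes to 13234 and 8080 CPM, and their part in the Ackr3 ratio was not tested. Cells with a UMI were 41.2% and 34.4% at nearly the same median depth of 15889 and 15890 UMIs, and 5.96% and 3.86% after thinning, against 4.18% and 2.98% unthinned in myeloid-like cells. The ratio stayed between 0.467 and 0.549 under the 12 alternatives. In ductal-like cells 3 of the 4 homeostatic chemokine genes with 50 UMIs (Ackr3, Cxcr4 and Cxcl13, not Ccr7) reached a ratio of 1.5, against 14.5% of all genes, but Cxcr4 and Cxcl13 lay below the level of free RNA there.

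The lower Ackr3 level in the library labelled MCT1-KO was seen in most ductal-like clusters, which were named for 5 to 8 detected markers of 9, with a marker among the leading genes of clusters 4 and 19 but not of the others. The ductal-like class held 1285 and 648 CPM of the PSC-like markers beside 1382 and 1796 CPM of the ductal markers. Cluster 1 (Enpp2, Cxcl15) had 80.3 and 42 CPM, cluster 4 (Krt19, Msln) 54.7 and 31.5 CPM, cluster 6 (Inhba, Lif) 84.6 and 42.2 CPM, and cluster 16, led by interferon-induced Gbp genes, 80.0 and 40.8 CPM. The cycling cluster 7 had nearly equal levels, 38.4 and 38.0 CPM, a ratio of 0.990 (0.778-1.27). Cluster 19, with Epcam and Cldn3 in the lead, held 5 and 4 UMIs, 19.0 and 11.5 CPM, which is below free RNA. In PSC-like cells Ackr3 had 53.6 and 47.5 CPM, a ratio of 0.887 (0.688-1.14), with most of it in sub-cluster 0 at 115 and 128 CPM. Sub-cluster 3 was lower in the library labelled MCT1-KO, 43.4 CPM from 28 UMIs against 15.0 CPM from 7 UMIs, and endothelial-like cells had 39.4 and 32.6 CPM. Free RNA held 23.6 and 16.9 CPM.

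Cxcr4, the signalling receptor of CXCL12, was most abundant in leukocytes. Myeloid-like cells had 1203 UMIs in FLOX, 76.8 CPM (72.5-81.3), and 871 UMIs in the library labelled MCT1-KO, 73.4 CPM (68.7-78.5), a ratio of 0.956 (0.875-1.04). Neutrophil-like cells had 129 UMIs, 98.9 CPM (82.6-118), and 35 UMIs, 38.5 CPM (26.8-53.5), a ratio of 0.389 (0.260-0.569), in 14.3% and 4.54% of cells, or 11.1% and 4.12% after thinning. Ductal-like cells held a UMI in 3.03% and 1.58%. The gap was present in both neutrophil-like clusters, with ratios of 0.409 (0.246-0.658) in cluster 8 and 0.355 (0.172-0.677) in cluster 13. In neutrophil-like cells immediate early genes summed to 11333 and 5338 CPM and heat shock genes to 4996 and 4780 CPM. Immune genes summed to 3091 and 1765 CPM there and acinar genes to 199 and 6896 CPM. The part of these shifts in the Cxcr4 ratio was not tested. Cxcr4 was the one gene of the set tested in neutrophil-like cells, and 24.4% of all genes reached a ratio of 1.5 there. Estimated from acinar genes, free RNA made up 57.8% and 37.7% of neutrophil-like UMIs, more than in any other class where it was estimated.

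T/NK-like cells had 36.9 and 32.1 CPM of Cxcr4, a ratio of 0.871 (0.610-1.23), and CD8+ T cells, those among them with UMIs of Cd8a or Cd8b1 but not of Cd4, had 34.5 and 25.6 CPM. B-like cells had the highest FLOX level, 215 CPM (121-355) from 15 UMIs in 33 cells, and 70.3 CPM (43.0-109) from 20 UMIs in 178 cells of the library labelled MCT1-KO. Dendritic-like cells had 8 UMIs (6.80 CPM) and 17 UMIs (24.6 CPM), a ratio of 3.61 (1.48-9.68), beside a free RNA level of 24.2 and 15.5 CPM. PSC-like cells, which carry the ligand, held 7 and 15 Cxcr4 UMIs, and ductal-like cells 2.51 and 1.13 CPM.

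Cxcr5, the receptor of CXCL13, was rare, with 187 UMIs over all kept cells. B-like cells had 28 UMIs in 33 FLOX cells, 402 CPM (267-581), and 55 UMIs in 178 cells of the library labelled MCT1-KO, 193 CPM (146-252), a ratio of 0.481 (0.300-0.788). The share of B-like cells with a UMI was 54.5% (36.4-71.9) and 22.5% (16.6-29.3). The ratio depended on how the class was drawn: with classes set by marker share, which took in 61 and 188 cells, it was 0.847 (0.513-1.44). Of the 2 genes of the set with 50 UMIs in B-like cells, Cxcr5 reached 1.5 and Ccr7 did not, against 33.9% of all genes. T/NK-like cells held 8 and 1 Cxcr5 UMIs, too few for a level by kind of T cell, and neutrophil-like cells 20 and 5 (15.3 and 5.50 CPM), above the 0.482 and 0.633 CPM of free RNA.

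Ccr7, the receptor of CCL19, was found in B-like, dendritic-like and T/NK-like cells. B-like cells had 36 UMIs, 517 CPM (362-716), in FLOX and 110 UMIs, 387 CPM (318-466), in the library labelled MCT1-KO, in 42.4% and 44.9% of cells, a ratio of 0.748 (0.509-1.12). Dendritic-like cells had 237 and 154 UMIs, 202 CPM (177-229) and 223 CPM (189-261), a ratio of 1.11 (0.896-1.36), in 20.2% and 25.7% of cells. The ratio was below 1 with classes set by marker share (0.809, or 0.843 without the upper gene limit) and after subtraction of free RNA (0.815). Ccr7 was the one gene of the set tested there and did not reach 1.5, as 22.7% of all genes did. Free RNA held 3.28 and 5.10 CPM and ductal-like cells 1.90 and 1.69 CPM.

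Among dendritic-like cells Ccr7 sat in a small group. Sub-cluster 3, led by Fscn1 with Cacnb3, Cd200 and Socs2, genes of mature dendritic cells that migrate to lymph nodes, had all 9 mature markers detected and a Ccr7 UMI in each of its 12 FLOX and 6 MCT1-KO-labelled cells. These cells held 176 of 237 and 92 of 154 UMIs, at 1807 and 2879 CPM, a ratio of 1.59 (1.22-2.06). Sub-cluster 0, led by Il1r2 and Cybb, had 193 and 215 CPM, in 21.2% and 43.2% of cells, but held 9 of 10 myeloid markers (2732 and 2177 CPM) against 3 of 8 dendritic markers (182 and 245 CPM). Sub-cluster 1 had 3 and 11 UMIs (6.54 and 54.1 CPM), and the cycling sub-cluster 2 had 4 and 1 UMIs.

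T/NK-like cells differed between the libraries in Ccr7. They had 101 UMIs in FLOX, 42.8 CPM (34.9-52.0), and 185 UMIs in the library labelled MCT1-KO, 108 CPM (93.0-125), a ratio of 2.52 (1.97-3.25) with rank 47 of 7607 genes. A UMI was present in 6.17% (4.34-8.48) and 13.4% (10.5-16.7) of cells, 2.60% and 6.74% after thinning, and in 2.27% and 2.11% of the deeper ductal-like cells. Of the 2 genes of the set with 50 UMIs in these cells, Ccr7 reached 1.5 and Cxcr4 did not, against 16.2% of all genes. The ratio lay between 1.95 and 3.22 under the 12 alternatives. In T/NK-like cells heat shock genes summed to 11551 and 7340 CPM, acinar genes to 124 and 2844 CPM and myeloid markers to 2941 and 1729 CPM. The part of these shifts in the Ccr7 ratio was not tested.

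Split by co-receptor, the higher level lay in CD8+ T cells. In these, Ccr7 had 31 UMIs in 343 FLOX cells, 21.4 CPM, and 126 UMIs in 232 cells of the library labelled MCT1-KO, 129 CPM, a ratio of 6.03 (4.04-9.24), with a UMI in 3.79% (2.03-6.39) and 17.2% (12.6-22.7) of cells. CD4+ T cells, with Cd4 and without either Cd8 gene, had 43 UMIs (91.3 CPM) and 14 UMIs (58.7 CPM) in 75 cells of each library, a ratio of 0.643 (0.325-1.20). The difference between these ratios was not tested, as 1 library per genotype gives no test.

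By sub-cluster, the highest count of Ccr7 UMIs in T/NK-like cells of the library labelled MCT1-KO lay where activation genes led. The highest level did not lie there, and the difference between the libraries was not limited to that sub-cluster. Sub-cluster 1 (Ifng, Lag3, Prf1 and Havcr2, genes of activated cytotoxic T cells) had 26.5 and 159 CPM, a ratio of 5.99 (3.53-10.7), in 5.63% and 20.7% of cells. Sub-cluster 2 (Tnfsf8, Tnfsf11) had 72.3 and 192 CPM and the cycling sub-cluster 3 88.5 and 143 CPM. From few UMIs, sub-cluster 0 (Ly6c2, Ccl5) had 2.49 and 26.8 CPM (1 and 7 UMIs). Sub-cluster 7, with natural killer genes, had 0 and 63.6 CPM (0 and 7 UMIs), and sub-cluster 8, led by C1q genes, 12.2 and 63.0 CPM (4 and 9 UMIs). In sub-cluster 4, with S1pr1, Tcf7 and Lef1 and all 6 genes of naive and central memory T cells detected, Ccr7 stood at 131 and 128 CPM, from 8 UMIs in 21 cells and 12 UMIs in 54 cells. Sub-cluster 5, led by epithelial and stromal genes with Foxp3, had the higher level in FLOX, 145 against 55.1 CPM (22 and 12 UMIs). T/NK-like cells with Ccr7 held 666 CPM of the naive and central memory genes in FLOX and 495 CPM in the library labelled MCT1-KO, and those without 540 and 628 CPM.

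**Figure D5:**
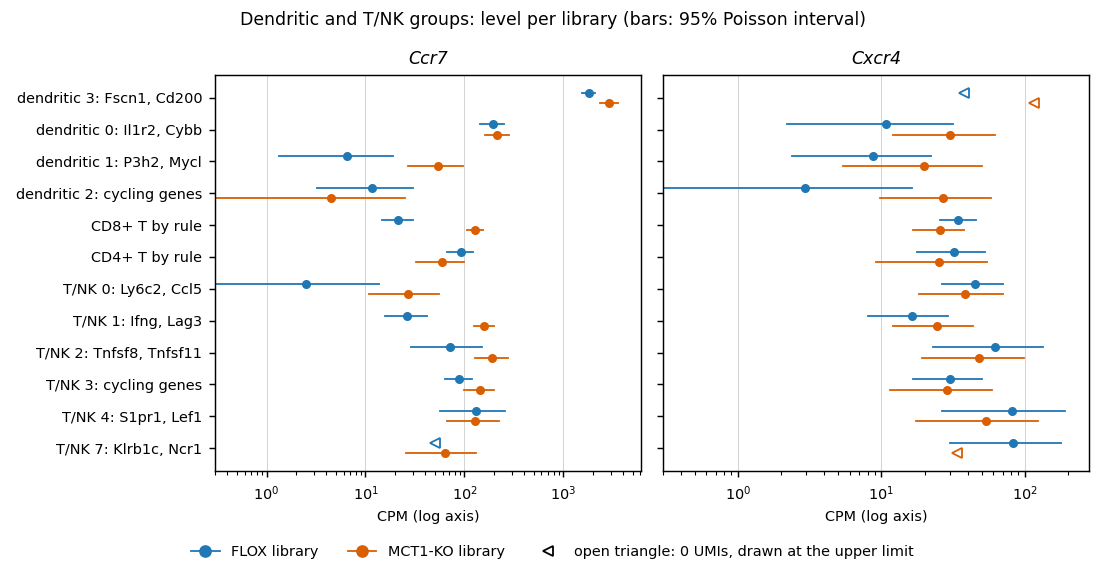
CPM (log axis) of Ccr7 and Cxcr4 in dendritic-like sub-clusters, in T cells split by Cd8a, Cd8b1 and Cd4 UMIs and in T/NK-like sub-clusters, with a point per library, the 95% Poisson interval as a bar and an open triangle at the upper limit where the count was 0. Ccr7 is highest in dendritic sub-cluster 3 (1807 and 2879 CPM) and separates the libraries in CD8+ T cells (21.4 and 129 CPM), whereas the Cxcr4 intervals of the 2 libraries overlap in CD8+ and CD4+ T cells.

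The wider pathway was followed through 4 lists of genes in the PSC-like, dendritic-like, T/NK-like and B-like classes, counting genes with 50 UMIs in the class and a ratio of 1.5. Of 9 lymphotoxin, TNF and noncanonical NF-kB genes, the inputs known to switch on Cxcl13 and Ccl19 in lymphoid stroma, 6 were measured in PSC-like cells and 1 was higher in the library labelled MCT1-KO, where 21.3% of all genes passed 1.5 in either direction. That gene was Tnf, with 17 UMIs (8.06 CPM) in FLOX and 88 UMIs (29.2 CPM) there, a ratio of 3.63 (2.14-6.5), in 5.05% and 8.56% of cells. Tnf is also a leading gene of myeloid-like cluster 5, the myeloid marker genes summed to 1195 and 1419 CPM in PSC-like cells, and the sub-cluster led by macrophage genes made up 6.42% and 10.6% of the class, whose part in the Tnf count was not tested. The receptor Ltbr had 38.9 and 37.2 CPM, Tnfrsf1a 143 and 141 CPM, and the downstream subunits Nfkb2 and Relb ratios of 1.05 and 0.947. The list's median ratio was 1.01, beside 0.978 over all genes.

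Of 10 lymphoid stroma genes, 4 were measured in PSC-like cells and 0 passed a ratio of 1.5, against 21.3% of all genes in the class. Il7, with 5 and 37 UMIs, was under the minimum of 50 UMIs and had a ratio of 5.18 (2.03-16.9). Pdpn, the podoplanin of lymph node stroma, had 624 and 626 CPM, Vcam1 236 and 258 CPM, Icam1 88.7 and 113 CPM, and the B cell survival factor Tnfsf13b 17.5 and 18.9 CPM. Of 11 further ligands and decoy receptors, 3 were measured and 1 was lower in the library labelled MCT1-KO, the chemokine Cxcl14 with 336 and 142 CPM, a ratio of 0.423 (0.374-0.477). Of 7 receptor signalling genes 5 were measured and 2 were lower, Rgs1 (0.529) and Elmo1 (0.664), both genes that leukocytes express.

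In T/NK-like cells, where 16.2% of all genes passed 1.5, the lymphotoxin list had 1 of 6 measured genes past it, Ltb, the membrane anchor of lymphotoxin, with 231 CPM in FLOX and 141 CPM in the library labelled MCT1-KO, a ratio of 0.612 (0.523-0.713). Relb had a ratio of 1.47 (1.21-1.80) and Map3k14 1.41 (1.05-1.89). Of 6 measured receptor signalling genes 2 were lower, Rgs1, a brake on chemokine receptor signalling, with 863 and 295 CPM (0.342) and Rgs2 with 910 and 601 CPM (0.660). Icam1 (1.76) and Tnfsf11 (1.69), 2 of the 3 measured lymphoid stroma genes, were higher, and Cd74, 1 of 4 further ligand and receptor genes, was lower (0.539). Myeloid markers summed to 2941 and 1729 CPM in T/NK-like cells, and their part in the Cd74 ratio was not tested.

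Dendritic-like cells, with 22.7% of all genes past 1.5, had Tnfrsf1a (1.81) and Map3k14 (1.62) higher and Ltb (0.593, 0.306-1.09) lower among 6 measured lymphotoxin genes. Icam1 (1.55) was higher among 3 measured lymphoid stroma genes, Mif (0.665) lower among 4 further ligands and Dock2 (0.646), which links chemokine receptors to cell movement, lower among 7 receptor signalling genes. In B-like cells, with 33.9% of all genes past 1.5, Gpr183, the oxysterol receptor that positions B cells outside follicles, had 48 UMIs (689 CPM) in FLOX and 52 UMIs (183 CPM) in the library labelled MCT1-KO, a ratio of 0.265 (0.176-0.401), while Mif had 14 and 97 UMIs, a ratio of 1.70 (0.964-3.22). Dock2 was lower (0.507) among 4 measured signalling genes, and Relb, the only lymphotoxin gene measured in B-like cells, had a ratio of 0.898.

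The genes most like each member were read from the levels in 17 profiles (10 classes with at least 50 cells, by library) among 15321 genes, by Pearson's r of log2(CPM + 1), as a description in which profiles share libraries and depth. Cxcl13 was most like Prg4 (0.908), Gfra4 (0.900), Sfrp2 (0.891) and Serpina3n (0.879). Cxcl12 was most like Amotl1 (0.983), Prrg3 (0.970), Nox4 (0.968), Msx1 (0.967) and Hoxb7 (0.964), and Ccl19 like Xkr4 (0.995), Egr4 (0.991), Adamts15 (0.991), Lvrn (0.988) and Gm50304 (0.983). Among the receptors, Cxcr4 was most like Arhgap25 (0.924), Mgat4a (0.916), Slc16a6 (0.901), Abcg1 (0.898) and Gmfg (0.894), and Ackr3 most like Efnb1 (0.922), Ikbip (0.919), Fendrr (0.919), Ptpn14 (0.918) and Amotl2 (0.918). Cxcr5 was most like Nsf (0.880), Ceacam16 (0.861), Cab39l (0.845), Gm38250 (0.841) and Bcl11a (0.840), and Ccr7 most like Tespa1 (0.972), Ccr6 (0.959), H2-Oa (0.953), Fgf13 (0.937) and Gm10974 (0.935). By Spearman's rho over the same profiles the 5 nearest genes were mostly others, so these names depend on the measure.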

How the data were processed

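Per the labels and methods, single-cell 3' libraries were made with a SeekOne kit (the labels name a microwell kit, the methods also a droplet platform), and the authors trimmed reads with Fastp, counted UMIs with SeekOneTools and used Seurat 4.0.0. The deposited matrices hold raw UMI counts of unfiltered barcodes, 1437105 for FLOX and 1433633 for MCT1-KO, with mouse gene identifiers. The build and annotation behind them could not be settled, since the build named is human, so positions and promoters come from GENCODE vM21 and RefSeq on GRCm38.

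Barcodes with at least 500 UMIs, 200 to 5000 genes and at most 8% mitochondrial UMIs were kept, 8739 and 11689. The upper gene limit left out 2062 and 1231 barcodes. Cells were clustered with Seurat 5.3.0 (R 4.3.3) after integration, without the 7 genes among the variable features, and clusters were named from marker lists. The members and lists were chosen with earlier results of these data known, and the naming thresholds after clusters had been seen. Named genes were the 7 members, genes of the pathway lists with at least 50 UMIs in a class and the 5 genes most like each member, with some items not reported here. Doublets were not removed in the main values, and the 8% of cells with the highest doublet score were left out as an alternative. The step that computes ratios was tested on simulated Poisson counts at class means. These hold no clumping of UMIs in single cells, so the simulation does not show how the intervals do under such clumping.

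UMIs were summed per class and library (numpy 2.4.6, scipy 1.17.1). Intervals are exact Poisson for CPM, conditional exact for ratios and Clopper-Pearson for shares, at the 95% level, and a count of 0 was given a floor of 3 UMIs. With 1 library per genotype no test between genotypes was made. Free RNA was taken from barcodes of 10 to 100 UMIs. The alternatives were other cell filters, clusterings, class rules and totals, and subtraction of free RNA. In others, doublets, PSC-like cells with an immune gene UMI, leukocytes with a collagen UMI, the top cell or shared barcodes were left out.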

Additional observations from a re-analysis of the deposited data

Results flagged for a closer look

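Cxcl12 was flagged because the libraries differed in opposite directions in its sources: the ratio of the library labelled MCT1-KO over FLOX was 2.50 in PSC-like and 0.492 in endothelial-like cells. Among PSC-like sub-clusters it was 2.65 in sub-cluster 0, 2.64 in sub-cluster 1, 2.17 in sub-cluster 2 and 8.94 in sub-cluster 4, against 0.473 in sub-cluster 3. With 1 library per genotype these differences between cell groups were not tested.

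Among myeloid-like clusters Ackr3 had ratios of 0.222 in cluster 2 and 0.343 in cluster 10 against 1.95 in cluster 5. Barcodes of 10 to 100 UMIs held Ackr3 at 23.6 and 16.9 CPM. The levels of 6.07 and 1.34 CPM in cluster 2 and 5.44 and 10.6 CPM in cluster 5 are below these. In cluster 10 the FLOX level of 52.0 CPM (46 UMIs) is above, and the 17.8 CPM (29 UMIs) of the library labelled MCT1-KO is close. Cxcl13 had ratios of 6.33 in cluster 2 and 47.5 in cluster 5 against 0.166 in cluster 14, with 1.24 in cluster 10. These opposite directions were not tested, and the low Cxcl13 ratio rests on 48 UMIs in 4 FLOX cells. In the library labelled MCT1-KO the 3.69 CPM of cluster 14 lies below the 52.7 CPM of barcodes of 10 to 100 UMIs.

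Outside the kept cells, barcodes of 10 to 100 UMIs held Cxcl13 at 25.7 times the FLOX level in the library labelled MCT1-KO, from 64 and 1334 UMIs. This difference was not tested either.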

How the results depend on the processing

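Depth and cell number limit these results: Cxcr5 rests on few UMIs, B-like cells on 33 FLOX cells, and every ratio on 1 library per genotype. No paired analysis was possible because there was 1 library per genotype and no test. The alternatives that keep sub-clusters 0, 2 and 3 or leave out the top cell or the shared barcodes were chosen after seeing the data.

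No ratio of a class past 1.5 changed direction under the alternatives that gave one. Subtraction of free RNA gave none for Cxcr4 and Cxcl13 in ductal-like cells, where it left no FLOX UMIs. Their direction was therefore not checked under it. Of 111 alternative values for the 9 main ratios 88 lay inside the counting interval of the reported ratio. The others, for the library labelled MCT1-KO over FLOX, were these, and their causes were not tested. With classes set by each cell's marker share the ratio was 5.72 for Cxcl12, 102 for Cxcl13 and 2.66 for Ccl19 in PSC-like cells, 0.847 for Cxcr5 in B-like and 0.809 for Ccr7 in dendritic-like cells. Without the upper gene limit as well, these were 6.79, 141, 3.55, 0.929 and 0.843, and Cxcr4 in myeloid-like cells was 1.07. After subtraction of free RNA the ratio was 1.90 for Cxcl12 and 9.83 for Cxcl13 in PSC-like, 0.770 for Cxcr4 in myeloid-like, 0.467 for Ackr3 in ductal-like, 1.95 for Ccr7 in T/NK-like and 0.815 for Ccr7 in dendritic-like cells. Without PSC-like cells that held immune RNA it was 1.13 for Cxcl12, 8.23 for Cxcl13 and 0.640 for Ccl19. For Cxcl13 alone it was 11.3 without likely doublets, 10.5 in sub-clusters 0, 2 and 3, and 31.4 without the top cell.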

Other observations

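The PSC-like class of the library labelled MCT1-KO held 13 adipocyte-like cells and FLOX 0. In these cells Cxcl13 had 149 UMIs, found in 8 cells. Ackr3 and Cxcl12 also met in PSC-like cells: Cxcl12 was present in 38.5% of FLOX cells with Ackr3 and 27.1% of those without, and in 72.5% and 40.5% in the library labelled MCT1-KO. Cells with Ccl19 also held Cxcl13 in 33.3% and 55% of cases, against 7.85% and 35% of the cells without Ccl19.

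Among dendritic-like cells with Ccr7 the 9 mature migratory genes summed to 6405 CPM in FLOX and 4034 CPM in the library labelled MCT1-KO, and to 1004 and 2468 CPM in the cells without it.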
